A study of Drosophila melanogaster with 62 samples.

Results

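Short TE segments are the pieces of 3′ untranslated regions (3′ UTRs) that the authors' early-embryo annotation types as TE, marks as 3′ UTR and draws narrower than 1000 bases. They were chosen by these 3 properties alone, and 6335 of the 79593 annotated segments met them, in 2942 genes. They made up 30.3% of the 20927 segments marked as 3′ UTR and 81.7% of the 7757 TE segments marked so. What the type codes TE, LE and AL stand for is not given in the labels or file headers, and they are quoted as they stand. The series set mutants of the ELAV family genes elav, fne and Rbp9 against wild type in Drosophila melanogaster, by stranded mRNA sequencing of pooled male embryos.

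The early comparisons of the first experiment set single mutants of elav, fne or rbp9, the doubles elav-fne and elav-rbp9 and the triple mutant elav-fne-rbp9, with 3 libraries each at 14 to 16 h, against 3 wild-type libraries of the same age. A further set of 3 fne-rbp9 mutant libraries is labelled 18 to 22 h yet assigned to one of the early tables, which leaves the stage of these embryos uncertain. The late comparisons at 18 to 22 h set 3 elav, 4 fne and 5 elav-fne mutant libraries against 4 wild-type libraries. A second experiment set nFne and elav-nFne mutants against its own wild type, with 3 libraries per genotype at each of both ages. The labels name neither the alleles nor what nFne stands for. The other samples used here were 2 libraries of wild-type adult male heads. The labels do not say that replicate libraries came from separate crosses or collections. The authors' p-values therefore weigh differences only against the variation among these libraries, part of which may be technical.

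ELAV, FNE and RBP9 are related neuronal RNA-binding proteins that recognise U-rich RNA. ELAV is known to favour distal cleavage and polyadenylation sites in neurons, which gives many neuronal mRNAs longer 3′ UTRs. A 3′ UTR with several cleavage sites can be cut into consecutive segments, and the use of a distal segment relative to the rest of its gene falls when fewer transcripts extend through it. Nuclear FNE is known to take over this role in part when ELAV is missing.

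The deposited early tables hold at most 1 entry per gene, for 1 segment or several segments of it, and only decreases are listed, with an adjusted p below 0.0001 and a log2 fold of -0.75 or lower. A short TE segment was counted as listed where an entry of the table named its gene and its segment number. Use of a segment is given by the authors as a fitted value per genotype, relative to its gene, on the authors' own scale, and the log2 fold sets the mutant over wild type but is not the log2 of the ratio of those values. Segments that are not listed were not shown to be unchanged, and the tables hold no values per embryo library, so the depth of the embryo libraries is unknown.

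In position, short TE segments were mostly downstream pieces of stacked 3′ UTRs. Their width ran from 1 to 998 bases with a median of 317 bases and quartiles of 176 and 529 bases, against a median of 1511.5 bases for the 1422 long TE segments of 1000 bases or more. The short segments held 47.7% of all bases in TE segments of 3′ UTRs. At the narrow end, 619 were 100 bases or less, of which 107 were 10 bases or less. A gene held 1 short TE segment in 593 cases, 2 in 1619, 3 in 524, 4 in 134 and 5 or more in 72. Genes with both short and long TE segments numbered 1025.

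The genes with the most short TE segments were Btk29A, a Tec-family tyrosine kinase, and Tlk, the Tousled-like kinase, each with 8. Of these, 3 were listed for Btk29A and 1 for Tlk in at least 1 early table. The genes sm, 14-3-3epsilon, unc-13 and Wdr62 held 7 each, and 3 of those of 14-3-3epsilon were listed and none of those of sm, unc-13 and Wdr62. At the width limit, the widest short segments were those of orb2 (998 bases) and jef (997 bases). The narrowest long ones were those of Pur-alpha (1000 bases) and CG4022 (1001 bases). None of these 4 was in an early table.

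The segments adjoined one another. An upstream segment of the same gene directly abutted 4345 short TE segments (68.6%), and in 3250 cases that neighbour was itself a short TE segment. The last annotated segment of its gene was a short TE segment in 2599 cases, 41.0% of the short ones, against 26.1% of the long TE segments. Chromosome arms 2L, 2R, 3L and 3R held 1566, 995, 1064 and 1261 short TE segments, chromosome X 1355 and chromosome 4 94. Those listed in at least 1 early table numbered 35 on 2L (2.23%), 30 on 2R (3.02%), 36 on 3L (3.38%), 50 on 3R (3.97%), 50 on X (3.69%) and 6 on 4 (6.38%). Of the long TE segments 9.56%, 10.7%, 11.6%, 13.2%, 10.7% and 16.0% were listed, in the same order. The share over all 3′ UTR segments was not computed per chromosome, so these shares are not shown to be particular to short TE segments.

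The mark as 3′ UTR was set beside the Ensembl gene models of the same assembly. Of the short TE segments, 4411 (69.6%) had at least 90% of their bases in an annotated 3′ UTR of their gene, against 52.2% of the long TE segments. The shortfall lay in the first TE segment of a gene, counted 5′ to 3′. Only 16.0% of the 2248 short segments that came first met that share, against 99.2% of the 2696 at position 2, 98.9% of the 922 at position 3 and 99.1% of the 469 that came later. The 3′ end of a short TE segment lay within 10 bases of an annotated transcript end in 85.7% of cases, and that of a long one in 80.9%. The upstream edge lay at such an end in 83.6% of the short segments that came second and 0.269% of those that came first.

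A map of 8 genes shows the arrangements met among them. The Hox gene abd-A, the vacuolar proton pump gene Vha26 and the translation elongation factor gene eEF1alpha1 each had a long first segment, of 2435, 1453 and 1966 bases, followed by a single short one of 413, 657 and 242 bases. Ldh, for lactate dehydrogenase, had 3 short segments of 216, 204 and 387 bases. The gene 14-3-3epsilon had 7 short segments in a row, of 131, 217, 295, 838, 315, 255 and 271 bases.

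**Figure D1:**
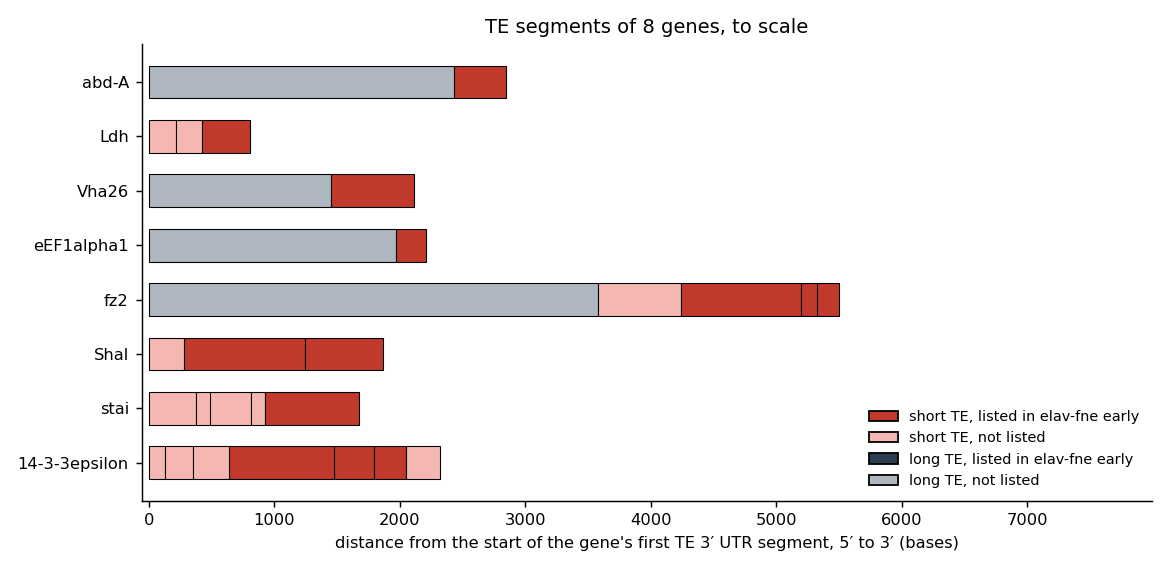
TE segments of 8 genes drawn to scale, with the distance in bases from the start of the gene's first TE 3′ UTR segment on the horizontal axis and 1 gene per row; red marks short TE segments listed in the elav-fne early table, pink unlisted short ones and grey unlisted long ones. In abd-A, Ldh, Vha26, eEF1alpha1, fz2, Shal and stai the red segments are the most distal ones, and in 14-3-3epsilon the last segment, of 271 bases, is not listed.

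Short TE segments entered the early tables of every genotype, at shares that stayed below those of long TE segments wherever elav was mutated. In elav mutants 86 short TE segments were listed (1.36%, exact binomial 95% interval 1.09 to 1.67), against 115 long ones (8.09%, 6.72 to 9.63). The share over all 3′ UTR segments in that table was 1.14%. In elav-rbp9 mutants 65 short segments were listed (1.03%, 0.793 to 1.31), against 6.33% of long ones and 0.903% of all 3′ UTR segments. For these 2 genotypes the interval of the short segments held the share over all 3′ UTR segments.

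The tables of elav-fne and elav-fne-rbp9 mutants held more of them. The elav-fne table listed 120 short TE segments (1.89%, interval 1.57 to 2.26), against 8.86% of long ones and 1.41% of all 3′ UTR segments. The elav-fne-rbp9 table listed 138 (2.18%, 1.83 to 2.57), against 8.02% of long ones and 1.73% of all. These intervals cover counting error only and treat the segments of 1 gene as independent, which they are not. All these comparisons share the 3 early wild-type libraries, so their shares are given side by side and were not set against each other.

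Where elav was intact, the intervals of short and long TE segments overlapped. In fne mutants 36 short TE segments were listed (0.568%, interval 0.398 to 0.786), against 9 long ones (0.633%, 0.290 to 1.20) and 0.301% of all 3′ UTR segments. The fne-rbp9 table listed 24 short ones (0.379%), against 4 long ones (0.281%) and 0.201% of all. The rbp9 table listed 5 short segments (0.0789%), against 1 long one (0.0703%) and 0.0334% of all, and its whole length was 6 entries. Entries with a short TE segment accordingly made up 34 of the 58 of the fne table and 22 of the 39 of the fne-rbp9 table. In the elav table they were 69 of 185, in elav-rbp9 54 of 149, in elav-fne 97 of 235 and in elav-fne-rbp9 108 of 284.

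**Figure D2:**
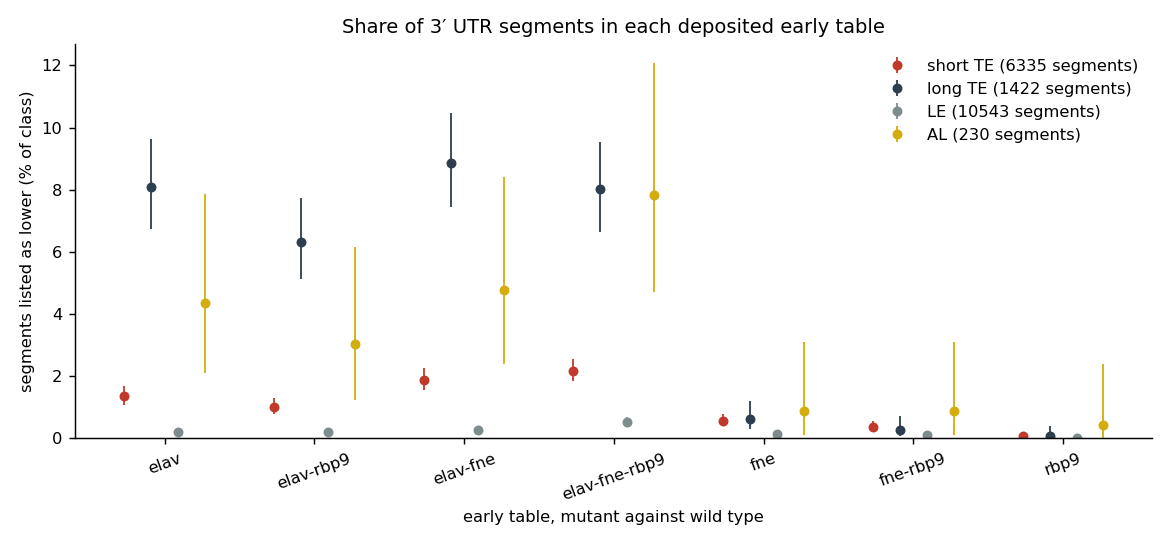
Percent of the segments of each type that each deposited early table lists as lower in the mutant, for short TE (red), long TE (dark blue), LE (grey) and AL (yellow) segments of 3′ UTRs; points are shares and lines exact binomial 95% intervals. Short TE segments lie between 1.03% and 2.18% in the 4 genotypes with elav mutated, against 6.33% to 8.86% for long TE segments, and the intervals of both overlap in fne, fne-rbp9 and rbp9.

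The other types framed these values. LE segments, the most numerous type with 10543 segments, were listed at 0.218% in elav, 0.285% in elav-fne and 0.142% in fne mutants. The 230 AL segments were listed at 4.35% in elav and 4.78% in elav-fne mutants, with wide intervals. In at least 1 early table, 207 short TE segments (3.27%) of 167 genes were listed, so 5.68% of the genes with a short TE segment had a listed one. On the same count, 0.489% of the short and 0.889% of the long TE segments that came first in their gene were listed. Of those that came later, 4.80% of the short and 24.1% of the long ones were. The share over all 3′ UTR segments was not computed for this count.

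Many entries joined a short TE segment with other segments of its gene. Of the 69 such entries for elav, 37 named a short TE segment alone, 9 named several short ones and 23 also named another segment. For elav-fne these numbers were 62, 12 and 23, and for fne 31, 0 and 3. An entry gives the same fold to every segment it names. In 322 of the 347 early entries whose first segment was a short TE one (92.8%), the position given lay within 1 base of that segment's upstream edge.

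In the genotypes with elav mutated, the listed share was higher in wide than in narrow short TE segments, though not from bin to bin in all. In elav mutants none of the 619 short TE segments of up to 100 bases was listed, then 0.404% from 101 to 200 bases, 1.15% from 201 to 400, 1.86% from 401 to 600, 2.58% from 601 to 800 and 3.18% from 801 to 999. In the other 3 of these genotypes the share was lower at 801 to 999 bases than at 601 to 800 bases, with 1.99% against 2.45% in elav-rbp9, 3.98% against 4.48% in elav-fne and 4.77% against 4.89% in elav-fne-rbp9 mutants. The long TE segments of the elav table continued with 5.97% up to 1499 bases and 15.9% at 3000 bases or more. In fne mutants the shares were 0, 0.323%, 0.599%, 0.971%, 0.543% and 0.795% over the same 6 bins, and 0.569% to 0.794% in the long ones. The narrowest listed short segment was that of fon, a clotting gene, with 102 bases, and the widest was that of CanA-14F, a calcineurin catalytic subunit gene, with 993 bases. The tables give no read depth for segments that are not listed, so its part in this order was not tested.

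**Figure D3:**
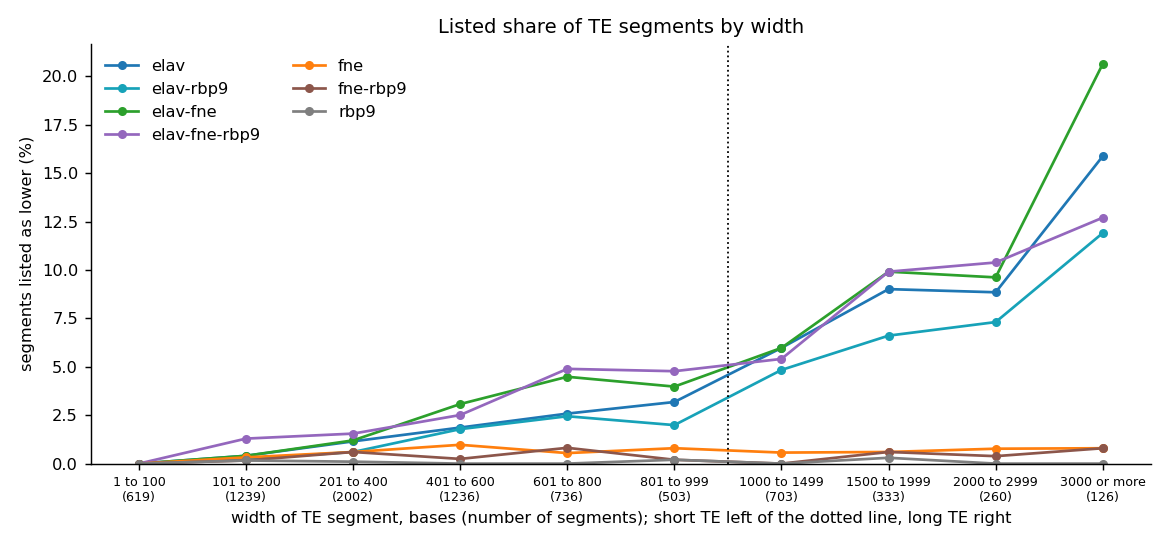
Percent of TE segments listed in each deposited early table by segment width in bases, with short TE segments left of the dotted line and long ones right of it; numbers in brackets are segments per bin and each coloured line is 1 table. The lines of the 4 genotypes with elav mutated start at 0 for segments of up to 100 bases and reach 3.18% for elav at 801 to 999 bases, while those of fne, fne-rbp9 and rbp9 stay below 1%.

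The listed share also went with the order along the gene. In elav mutants 0.133% of the short TE segments that came first in their gene were listed. At position 2 the share was 0.593%, at position 3 it was 2.28%, at position 4 it was 6.73%, and at position 5 or later 15.1%. In elav-fne mutants these 5 shares were 0.222%, 1.04%, 3.25%, 8.08% and 19.2%, and in fne mutants 0.0445%, 0.482%, 1.41%, 1.35% and 2.91%. Without the segments at position 1, 83 of 4087 short TE segments were listed in elav mutants (2.03%), against 111 of 635 long ones (17.5%). In fne mutants 0.856% of the short and 1.42% of the long ones were listed on the same footing. The tables list only decreases relative to the gene, and an entry can name several segments of it. The part of either in the rise along the gene was not tested.

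The listed share went likewise with the number of TE segments in the gene. In elav mutants it was 0.341% of the short segments in genes with 2 TE segments, 1.10% with 3, 2.41% with 4 and 6.06% with 5 or more. Order and number are nested, since a segment at position 5 needs a gene with at least 5, and they were not separated. Listed segments had a median width of 507 bases, against 313 bases for the 6128 that no early table listed. Of the listed ones 96.1% had at least 90% of their bases in an annotated 3′ UTR, against 68.7% of the unlisted, and 95.2% abutted an upstream segment, against 67.7%. Only 11 of the listed ones came first in their gene, where 16.0% of short segments met that annotation share. These contrasts were therefore not separated from order.

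**Figure D4:**
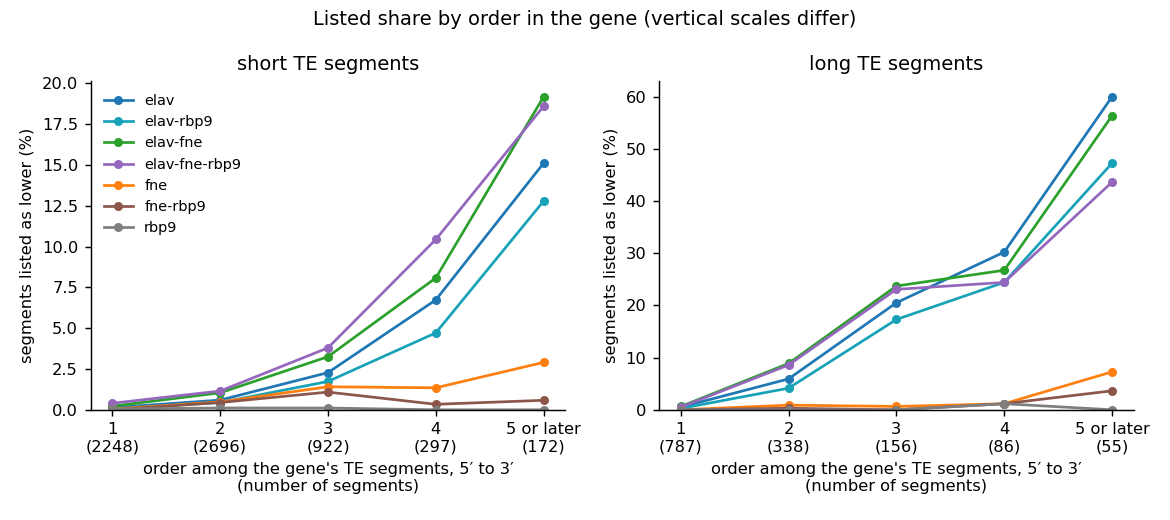
Percent of short TE segments (left) and long TE segments (right) listed in each deposited early table, by the segment's order among the TE segments of its gene counted 5′ to 3′; numbers in brackets are segments and the vertical scales differ. For elav the short segments run from 0.133% at position 1 to 15.1% at position 5 or later, and the long ones from 0.508% to 60.0%.

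At the genes under test, only fne itself had listed short TE segments. All 6 of its short TE segments were listed, in entries of 4 to 6 segments, while the 2 of elav and the 1 of Rbp9 were in no early table. In the authors' deposited elav table the fitted use of the fne entry was 14.3 in mutant and 49.8 in wild-type embryos (log2 fold -4.13). Values of 2.70 in mutants and 30.9 in wild type (-8.47) stood in the authors' deposited fne table. Fitted use was 0.0189 in elav-fne mutants, against 37.2 in wild type, in the authors' deposited table, and its log2 fold of -19.18 comes from a model fit near 0 and is no measured size. With the segments of these 3 genes left out, the elav share was 1.31% and the fne share 0.522%.

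Median folds of entries with a short TE segment, alone or joined with others, lay below those over the whole tables, which hold these same entries. In the authors' deposited tables the median log2 fold of entries with a short TE segment was -1.61 in elav, -1.53 in elav-rbp9, -1.74 in elav-fne and -1.84 in elav-fne-rbp9 mutants. Over all entries of the authors' deposited tables these medians were -1.41, -1.47, -1.73 and -1.54. In fne mutants the median was -1.40, against -1.25 over all entries, and in fne-rbp9 mutants -1.57, against -1.45, in the authors' deposited tables. For entries with a long TE segment the authors' deposited tables gave medians of -1.49 in elav, -1.51 in elav-rbp9, -2.14 in elav-fne and -1.83 in elav-fne-rbp9 mutants. In fne and fne-rbp9 mutants the authors' deposited tables gave -1.22 and -1.51 for these. An entry can hold both types. Entries that named a short TE segment alone had a median of -1.36 in elav, -1.48 in elav-fne and -1.38 in fne mutants in the authors' deposited tables. Over all entries of a single segment these tables gave -1.33 in elav, -1.54 in elav-fne and -1.23 in fne mutants. In elav-rbp9 mutants both medians were -1.31. Among entries of a single segment, those with a short TE segment thus did not have the lower median in elav-fne and elav-rbp9 mutants.

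Genes were grouped by 9 lists of chosen names, which do not cover every gene of a class, so each count holds for its list only. The lists were also drawn up with earlier results of these data known. A share above that of all genes with short TE segments may come from that choice. On the list of transcription factor and chromatin genes, 6 of the 25 genes with short TE segments had a listed one (24.0%), beside 5.68% of all genes with such segments. These were the Hox genes abd-A, Abd-B and Ubx and the other homeodomain genes ct, pros and zfh2. For abd-A, whose segment 11 lies at chr3R:16807214-16807626 on the minus strand, fitted use in the authors' deposited elav table was 8.60 in mutant and 23.0 in wild-type embryos, with a log2 fold of -2.98. It was 3.64 in elav-fne mutants and 17.4 in wild type in the authors' deposited elav-fne table (-4.62). Its folds in elav-rbp9 (-3.24) and elav-fne-rbp9 mutants (-3.90) of the authors' deposited tables lay between these.

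For ct, the cut gene, whose entry joined a short segment of 495 bases with another, fitted use was 3.99 in elav mutants and 23.9 in wild type in the authors' deposited table (-5.79), the lowest fold of any elav entry with a short TE segment. Abd-B reached 10.1 in elav mutants against 15.4 in wild type (-1.26), and 5.07 in elav-fne mutants against 11.6 in wild type (-2.42), in the authors' deposited tables. Ubx was listed in elav-fne (-1.05) and elav-fne-rbp9 mutants (-0.77) of the authors' deposited tables and not in elav. The entry of pros fell by 1.98 in elav mutants and by 2.94 in elav-fne mutants in the authors' deposited tables, and zfh2 by 1.41 in elav-fne-rbp9 mutants. None of these 6 genes was in the fne, fne-rbp9 or rbp9 table through a short TE segment.

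On the list of RNA-binding protein genes, 8 of the 36 with short TE segments had a listed one (22.2%), which were bru1, Hrb87F, Hrb27C, heph, rin, ssx, fne and ps. In the hnRNP gene Hrb27C fitted use was 28.5 in elav mutants and 55.7 in wild type in the authors' deposited table (-2.44). It was 10.7 in elav-fne mutants against 26.9 in wild type (-3.98) in the authors' deposited elav-fne table. In rin, for the stress granule protein Rasputin, use was 3.26 in elav mutants and 10.5 in wild type in the authors' deposited table (-3.41).

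The sister of Sex-lethal gene, ssx, had its largest listed decrease where fne was mutated and elav intact. Its segment 10 (580 bases, chrX:1374678-1375257, plus strand) had a fitted use of 4.43 in fne mutants and 12.3 in wild type in the authors' deposited table (-2.98), and 6.16 in fne-rbp9 mutants against 12.6 (-2.11). Its folds were -1.13 in elav-rbp9, -1.15 in elav-fne and -1.14 in elav-fne-rbp9 mutants in the authors' deposited tables, and it was not in the elav table. The remaining genes were listed with 1 or 2 genotypes only. Their folds in the authors' deposited elav-fne table were -1.50 for bru1, -1.56 for Hrb87F and -1.15 for ps, and heph had -1.04 in that of elav-fne-rbp9.

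On the list of metabolic enzyme and ion pump genes, 8 of the 21 with short TE segments had a listed one (38.1%). These were Ald, Hex-A, Ldh, Atpalpha, AcCoAS, nrv1, ATPCL and Vha26. The last of the 3 short segments of Ldh, at chr3L:6259105-6259491 on the minus strand, had a fitted use of 7.61 in elav mutants and 20.3 in wild type in the authors' deposited table (-2.94). In fne mutants it was 8.31, against 16.6 in wild type, in the authors' deposited fne table (-2.06). Ldh had folds of -2.76 in elav-rbp9, -3.84 in elav-fne and -2.87 in elav-fne-rbp9 mutants in the authors' deposited tables.

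Vha26, a subunit gene of the vacuolar proton pump, was likewise listed in elav, both elav double mutants, the triple mutant and fne. Its fitted use was 7.11 in elav mutants against 12.8 in wild type (-1.73), 3.59 in elav-fne mutants against 10.2 (-3.05) and 4.95 in fne mutants against 10.1 (-2.09) in the authors' deposited tables. The aldolase gene Ald was listed in the same 5 tables, with smaller folds from -0.83 in fne to -1.34 in elav-fne-rbp9 in the authors' deposited tables. ATPCL, for ATP citrate lyase, had 1.58 in elav mutants and 5.92 in wild type in the authors' deposited table (-3.82), at a mean normalised count of 20.5. It was also listed in elav-fne-rbp9 mutants (-2.85 in the authors' deposited table), but not in elav-rbp9 or elav-fne mutants. The sodium pump genes Atpalpha and nrv1 had folds of -0.85 in elav-fne and -1.45 in fne-rbp9 mutants in the authors' deposited tables. Hex-A, a hexokinase gene, had -1.75 in elav-fne mutants and AcCoAS, for acetyl-CoA synthase, -3.60 in elav-fne-rbp9 mutants in the authors' deposited tables.

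Of the 23 genes on the signalling list 7 had a listed short TE segment (30.4%), which were Cam, Galphao, rl, sgg, Rala, 14-3-3zeta and 14-3-3epsilon. For Cam, the calmodulin gene, fitted use was 34.6 in elav mutants and 54.6 in wild type in the authors' deposited table (-2.12). In elav-fne mutants it was 19.4 against 43.7 in wild type (-2.82) in the authors' deposited table. The joined last segments of 14-3-3zeta had 44.4 in elav mutants against 67.6 in wild type (-2.08), and 25.4 in elav-fne mutants against 56.5 (-3.40), in the authors' deposited tables. The 3 segments of 14-3-3epsilon fell less, by 0.90 in elav and by 0.98 in elav-fne mutants in the authors' deposited tables. Galphao, for a G protein alpha subunit, had -2.35, and sgg, for the fly GSK3 kinase, had -1.38 in elav mutants in the authors' deposited tables.

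The MAP kinase gene rl was listed at different segments in different genotypes. In rbp9 mutants the entry was its first TE segment, number 14, with a fitted use of 1.27 against 12.1 in wild type in the authors' deposited table (-6.56). In fne-rbp9 mutants it was the last one, number 16, with 7.70 against 15.8 in wild type in the authors' deposited table (-2.13). Segment 16 was also listed in elav-rbp9 (-1.56) and elav-fne-rbp9 mutants (-2.02) in the authors' deposited tables. The other rbp9 entries with short TE segments were those of the small GTPase gene Rala (5.89 in mutants, 14.4 in wild type, -2.33), CG12164 (7.50 and 13.02, -1.64) and the ribosomal protein gene RpL27 (18.7 and 23.8, -0.78) in the authors' deposited table.

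On the list of cytoskeletal and transport genes 4 of 17 were in a table (23.5%), namely chic, Map205, Tm1 and stai. For stai, the stathmin gene, the last 754-base segment alone had 6.92 in elav-fne mutants and 24.9 in wild type in the authors' deposited table (-3.90). Both listed segments of chic, the profilin gene, fell by 0.90 in elav-fne mutants in the authors' deposited table. Map205, for a microtubule-associated protein, and Tm1, a tropomyosin gene, fell by 1.49 and 1.86 in elav-fne mutants in the authors' deposited table.

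The ion channel list contributed 2 of 15 (13.3%). Shal, a voltage-gated potassium channel gene, had 16.96 in elav mutants against 28.8 in wild type (-1.64), and 5.10 in elav-fne mutants against 20.03 (-4.81), in the authors' deposited tables. The calcium-activated potassium channel gene slo was listed through a single short segment in elav mutants, with 11.8 against 16.9 in wild type in the authors' deposited table (-1.07). In elav-fne mutants its entry joined 5 segments, with 7.35 against 39.9 in wild type (-7.12).

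The lists of neuronal surface and synaptic genes had shares near the 5.68% of all genes with short TE segments. On the axon guidance and adhesion list 1 of 25 genes, Fas2, was in a table, with 19.0 in elav mutants against 26.6 in wild type in the authors' deposited table (-1.08). On the synaptic list 1 of 18 genes, Rop, the fly Munc18 gene, was in a table (5.56%), in elav-fne-rbp9 mutants (-0.86) in the authors' deposited table. On the translation and folding list RpL27 and eEF1alpha1 were so among 18 (11.1%). The lists were drawn up with earlier results of these data known and the shares were not tested.

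Outside these lists, several single segments had low folds. The last of the 8 TE segments of Tlk had a fitted use of 4.36 in elav mutants and 17.5 in wild type in the authors' deposited table (-4.10), and 2.54 in elav-fne mutants against 14.0 (-4.99). CG3678 was unusual in that its listed segment was the first of 2 TE segments, with 5.12 in elav mutants and 18.9 in wild type in the authors' deposited table (-3.87). In the Wnt receptor gene fz2 the 171-base last segment alone was listed in elav mutants, with 2.84 against 9.55 in wild type in the authors' deposited table (-3.52). In elav-fne mutants 3 segments of fz2 were joined, with 6.32 against 26.1 in wild type in the authors' deposited table (-5.95).

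Cka, for a kinase scaffold protein, reached 6.09 in elav-rbp9 mutants against 19.0 in wild type (-3.40), and DIP1 8.04 against 24.2 (-3.36), in the authors' deposited table. DIP1 was also listed in elav mutants (-3.20 in the authors' deposited table), but not in elav-fne or elav-fne-rbp9 mutants. In elav-fne mutants the RNA-binding protein gene bol had -5.58 and Btk29A -5.15 in the authors' deposited table. The fitted use of bol was 0.0652 in mutants, so its fold is again a fit near 0. Btk29A had 1.19 in mutants and 7.05 in wild type. Its mean normalised count of 17.8 was the lowest of the elav-fne entries with a short TE segment. In elav mutants another segment of Btk29A, number 26, was listed (-1.92 in the authors' deposited table). In elav-fne-rbp9 mutants stai had -5.63, stx -4.93, CG9497 -4.39, ringer -4.24 and cpo -3.95 in the authors' deposited table.

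The fne and fne-rbp9 tables held further genes. The narrow segment of fon had 2.04 in fne mutants against 7.87 in wild type (-3.91), Fur2, a furin gene, 3.70 against 8.68 (-2.48) and CG7556 5.28 against 10.9 (-2.12) in the authors' deposited table. The segment of akirin, a nuclear factor gene, had 5.49 in fne mutants against 11.3 in wild type (-2.10), and 5.45 in fne-rbp9 mutants against 11.3 (-2.13), in the authors' deposited tables. In fne-rbp9 mutants NimB5 had 1.77 against 6.26 in wild type (-3.66), CG11975 3.18 against 7.58 (-2.52), ringer 5.05 against 10.4 (-2.10) and CG42586 4.63 against 8.83 (-1.88) in the authors' deposited table.

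A set of 53 short TE segments of 43 genes stood in 4 or more of the 7 early tables, with no segment in more than 6. Long TE segments and all 3′ UTR segments were not counted in this way, so such recurrence is not shown to be particular to short ones. Because the tables share their wild-type libraries, the number 53 says nothing of how far genotypes resemble each other. Besides genes named above the set held segments of Alk, Bacc, Calx, CG16779, CG30116, CG42748, dco, Dys, E(Pc), hts, mtd, Nc73EF, nocte, OtopLa, Pde1c, Rtnl1, shakB, Spn and tna. Their log2 folds in the authors' deposited elav table ran from -0.78 for hts to -2.08 for E(Pc), an Enhancer of Polycomb gene. In the authors' deposited elav-fne table CG16779 had -4.33, Dys, the dystrophin gene, -3.87 and CG30116 -3.50. Rtnl1, a reticulon gene of the endoplasmic reticulum, had -1.36 in elav, -1.84 in elav-fne and -1.33 in fne mutants in the authors' deposited tables.

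**Figure D5:**
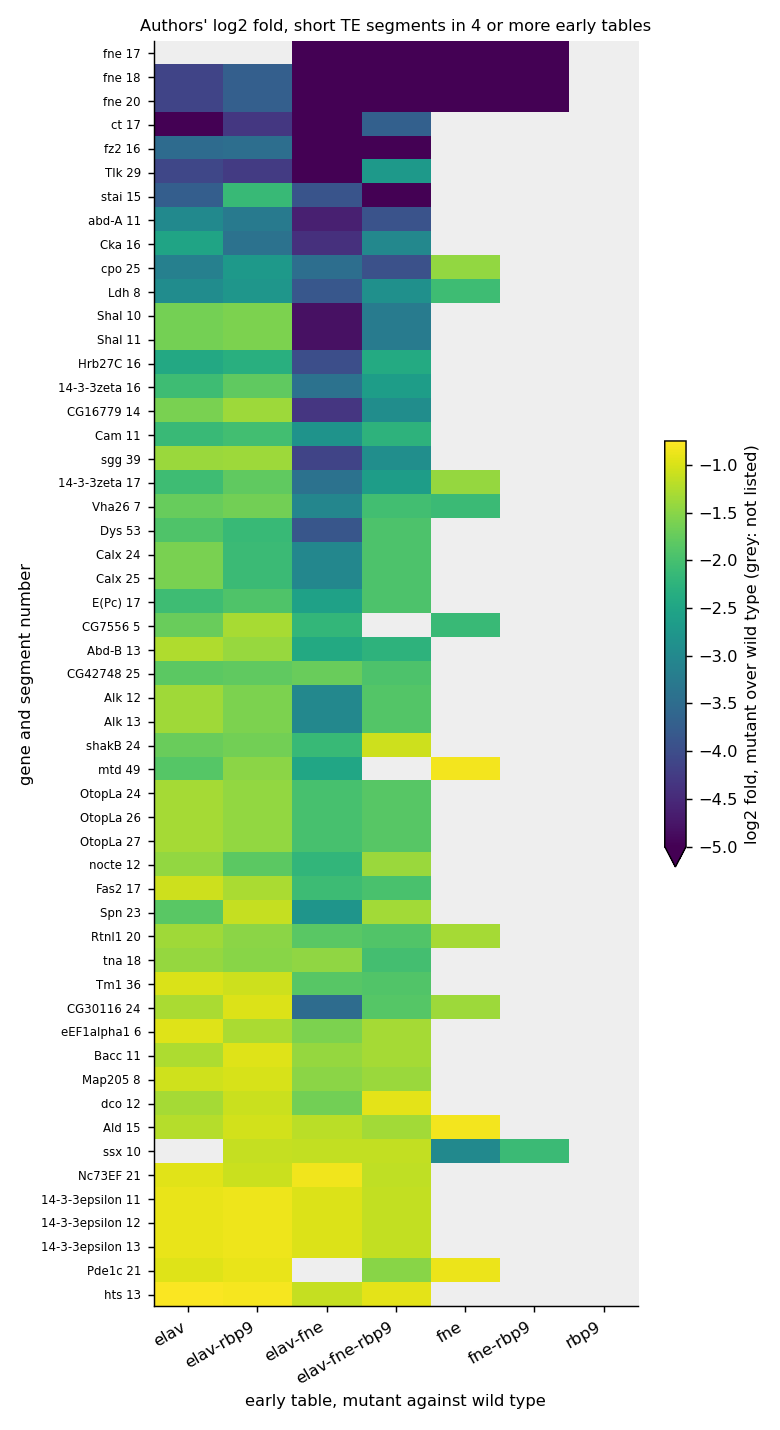
The log2 fold given by the authors, as mutant over wild type, for the 53 short TE segments in 4 or more early tables, with genes and segment numbers in rows and tables in columns; grey cells are not listed and the colour scale ends at -5.0. Segments of 1 entry share a value, as Shal 10 and 11 do at -4.81 in elav-fne, and ssx 10 is darker in fne (-2.98) than in elav-fne (-1.15).

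Of the short TE segments, 4559 (72.0%) had identical coordinates in the late annotation, and these were followed to 18 to 22 h. Only 108 of the 207 listed segments (52.2%) were among them. Of the 4559, 19 were listed in late elav mutants (0.417%), 47 in late elav-fne mutants (1.03%) and 5 in late fne mutants (0.110%). Over all 6331 short TE segments of the late annotation the shares were 0.411%, 1.25% and 0.111%. Those of its long TE segments were 2.74%, 6.90% and 0.211%, and those of all its 3′ UTR segments 0.372%, 1.04% and 0.0525%. Early and late comparisons have no library in common. Of the followed segments listed in elav mutants, 15 were in both stages, 78.9% of the 19 late and 36.6% of the 41 early ones. In elav-fne mutants 31 were in both, 66.0% of the 47 late and 48.4% of the 64 early ones.

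Single segments differed in size between the stages. For abd-A the authors' deposited tables gave log2 folds of -2.47 in late and -2.98 in early elav mutants, and of -4.27 in late and -4.62 in early elav-fne mutants. For Ldh the authors' deposited tables gave -1.64 in late and -2.94 in early elav mutants, and -4.60 in late and -3.84 in early elav-fne mutants. For chic the values in the authors' deposited tables were -1.68 in late and -0.83 in early elav mutants. Among the followed segments, the 5 listed in late fne mutants were segments 17 and 20 of fne (-5.74) and those of CG2023 (-1.04), CG42779 (-3.01) and hec (-16.18) in the authors' deposited table. They were named after their values were seen. For hec, with a fitted use of 0.0315 in mutants and 8.38 in wild type, the fold is a fit near 0. These stage differences were not tested.

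The second experiment gave a fold in each table for 173 genes, all of which the authors chose from the early elav list, so a decrease with elav mutated is no independent result. In 43 of them the tested segments were short TE segments only. In early elav-nFne mutants 32 of the 43 were lower at an adjusted p below 0.05 (74.4%), against 82.1% of all 173, and in late ones 37 (86.0%), against 90.2%. The median log2 fold of the 43 genes in the authors' deposited tables was -1.77 in early and -1.51 in late elav-nFne mutants, against -1.84 and -1.43 over all 173. In nFne mutants 2 of the 43 were lower early (4.65%), against 2.89% of all, and 6 late (14.0%), against 14.5%.

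The authors' deposited table gave log2 folds of -3.15 for chic and -1.36 for CG7556, the 2 genes lower in early nFne mutants. The 6 late ones were chic (-2.48), RpS4 (-1.41), Vha26 (-1.20), Map205 (-1.09), Ald (-1.05) and CG30116 (-0.89) in the authors' deposited table. The authors' deposited tables gave abd-A a fold of -3.76 in late and -3.91 in early elav-nFne mutants, and Ldh -3.81 in late and -3.86 in early ones. In the authors' deposited early nFne table the folds were -0.40 for abd-A and -0.23 for Ldh, and neither passed the threshold. Tlk had -4.99 in early elav-nFne and 0.26 in early nFne mutants in the authors' deposited tables, and the nFne value did not pass. DIP1 did not pass in elav-nFne mutants at either stage, with folds of -0.66 in both of the authors' deposited tables. ATPCL did not pass in early elav-nFne mutants (-1.33), and its late fold was 0.11, without an adjusted p, in the authors' deposited tables.

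In wild-type adult heads, genes with short TE segments were mostly expressed. Their median was 13.3 TPM in replicate 1 and 13.7 TPM in replicate 2, close to the 13.02 and 13.2 TPM of genes with long TE segments, against 1.27 and 1.38 TPM over all 17753 genes of the table. At least 1 TPM was reached by 82.3% of them in replicate 1 and 82.6% in replicate 2. The heads held markers of neurons (nSyb at 291 and 296 TPM), photoreceptors (ninaE at 7648 and 7960 TPM) and glia (repo at 14.5 and 15.0 TPM). The germ line genes vas, bam and osk, the testis gene Mst84Db and the ovary gene Yp1 were below 0.4 TPM in both. Of the other yolk protein genes, Yp2 stood at 0.860 and 1.04 TPM and Yp3 at 11.7 and 12.6 TPM.

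The 167 genes with a listed short TE segment had a median of 24.3 and 25.3 TPM in the 2 head libraries, against 12.8 and 13.1 TPM for the 2775 genes without one. Sorted by the head TPM of their gene, 0.212% of the 942 short segments at up to 1 TPM were listed in elav mutants, 0.287% of the 1393 from 1 to 10 TPM, 1.87% of the 3474 from 10 to 100 TPM and 2.85% of the 526 above. Heads are another tissue and age than the embryos compared, and how far expression in the embryos set the listing was not tested. The Hox gene abd-A was listed in 4 early tables and was at 0.0168 and 0.00719 TPM in heads.

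Of the 10 most highly expressed genes with short TE segments 2 had a listed one, beside 5.68% of all such genes. Those without were Arr1, an arrestin of photoreceptors, with 1606 and 1921 TPM, and sesB, the mitochondrial ADP/ATP carrier gene, with 1628 and 1727 TPM. ATPsynC and ATPsynbeta, for subunits of the mitochondrial ATP synthase, had 1170 and 1199 TPM and 921 and 986 TPM. Obp44a, an odorant-binding protein gene, had 1211 and 883 TPM, eEF2, an elongation factor gene, 712 and 731 TPM, Gs2, a glutamine synthetase gene, 813 and 624 TPM and RpL36, a ribosomal protein gene, 688 and 687 TPM. The 2 with listed segments were eEF1alpha1 at 953 and 975 TPM and Atpalpha at 912 and 919 TPM. For eEF1alpha1 the 242-base segment had a fitted use of 19.0 in elav mutants and 25.7 in wild type (-0.96), and 13.1 in elav-fne mutants against 22.0 (-1.60), in the authors' deposited tables.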

How the data were processed

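RNA from pooled male embryos was sequenced as stranded mRNA libraries and mRNA from adult male heads likewise, per the labels' protocols. ELAV iCLIP samples were not analysed here. Groups were taken from the labels. The authors deposited, for each early and late comparison, a log2 fold of segment use, a p-value and adjusted p-value, a mean normalised count and a fitted use score per genotype, per the file headers. The tool is not given in the sources used here. The second experiment's tables hold the authors' weighted log2 fold and smallest adjusted p-value per gene. The deposited segment annotations give widths and positions, were written with rtracklayer 1.40.5 per the file headers, and use the dm6 build, per the submitters' processing notes. Head values are TPM as the authors deposited them, and the 17753 listed genes sum to 360087 and 365410 TPM.

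Segments were matched to entries by gene and segment number, and to late segments by identical coordinates. Shares have exact Clopper-Pearson binomial 95% intervals, which cover counting error only. No test was made over segments or genes, and the authors' adjusted p-values across all genes were used as deposited. Positions were compared with Ensembl release 115 (BDGP6.54), and 2925 of 2942 gene IDs had a symbol there. The matching was tested on simulated data. Named genes were the 8 lowest folds per early table, segments in 4 or more early tables, the narrowest and widest listed segments, those nearest 1000 bases, listed genes of 9 gene lists, the 10 highest head TPM values and the genes with most short TE segments. These segments and the lists were chosen with earlier results of these data known. Python 3.11.15, numpy 2.4.6, scipy 1.17.1, pandas 2.3.3 and matplotlib 3.10.9 were used.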

Additional observations from a re-analysis of the deposited data

How the results depend on the processing

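Of 80 values recomputed under alternatives, 40 stayed within the error of the reported value (the exact interval of a share, the spread of the head libraries for TPM) and 40 moved. Median folds have no error here and counted as moved wherever they differed at 2 decimals, which all 7 did, in fne mutants with -1.38 against -1.40 in the authors' deposited table. Listed shares of short TE segments are given for elav, then elav-rbp9, then elav-fne, then the triple mutant, followed where stated by fne, fne-rbp9 and rbp9. With a width limit of 500 bases they were 0.850%, 0.567%, 1.003% and 1.37%, and with one of 2000 bases 2.14%, 1.64%, 2.65% and 2.84%. With entries of a single segment only they were 0.584%, 0.489%, 0.979% and 1.04%, and with entries made of short TE segments only 0.884%, 0.663%, 1.405% and 1.56%. Over the 796 segments of genes in at least 1 deposited table they were 10.8%, 8.17%, 15.1% and 17.3%, then 4.52%, 3.02% and 0.628%, because the denominator shrinks. At a log2 fold of -1 or lower, elav-fne moved to 1.55%. At -2 or lower the shares were 0.410%, 0.316%, 0.884%, 0.916%, 0.174% and 0.142% without rbp9. At an adjusted p below 1e-06, fne moved to 0.253% and fne-rbp9 to 0.189%. Leaving out the segments of elav, fne and Rbp9, chosen after seeing the data, moved no share beyond its interval. Median log2 folds over entries of a single segment in the authors' deposited tables were -1.36, -1.31, -1.48, -1.59, -1.38, -1.55 and -1.64 over the 7 tables. The median head TPM was 17.6 over genes of at least 1 TPM, against 13.6 over all, and lay between 13.3 and 13.7 without either replicate. Windows of sequence at segment ends were not run. No paired analysis was possible because the embryo tables hold no values per library and no test was made. The depth of the embryo libraries is unknown.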
